A study of Homo sapiens with 4 samples.

Results

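The loci of 4 cytokine genes of the interleukin 6 family, LIF, OSM, IL6 and IL11, were examined for binding of c-Jun in BT549 cells. BT549 is an established human cell line of triple-negative breast cancer, and c-Jun is a subunit of the transcription factor AP-1. Members were all peaks of the deposited c-Jun ChIP-seq lists whose centre fell in 1 of 3 hg19 intervals: chr22:30550000-30720000 around LIF and OSM, chr7:22600000-22900000 around IL6, and chr19:55830000-55930000 around IL11. The 4 lists together held 23721 peaks, and 29 of them lay in these intervals. Counting only peaks called against both controls, 8 of 4159 with TNFalpha and 4 of 3086 without it were members. The members were chosen by position, in intervals proposed with the presence and the score rank of these peaks in view, so presence and score rank are given as a description with no test.

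ChIP-seq recovers and sequences chromatin fragments bound by a protein. All cells were serum-starved overnight per the series text. A c-Jun antibody was used on 1 library from cells without TNFalpha and on 1 library from cells with TNFalpha, an inflammatory cytokine that was applied for 6 hours per the sample labels and for 3 hours per the series text. The 2 control libraries, normal rabbit IgG and input chromatin, both came from TNFalpha-treated cells, so the untreated c-Jun library was also called against treated controls. Each condition had 1 library, no difference has a replicate check, and read depth is unknown.

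Cytokines of this family signal through receptor complexes that contain the shared subunit gp130, encoded by IL6ST, and activate JAK kinases and the transcription factor STAT3. LIF, leukaemia inhibitory factor, signals through gp130 paired with LIFR, and OSM, oncostatin M, through gp130 paired with LIFR or OSMR, whereas IL6 and IL11 use receptors of their own together with gp130. TNFalpha activates both the JNK pathway, which phosphorylates c-Jun, and NF-kB, and IL6 is a classical inflammatory target of both factors. In the RefSeq gene order of GRCh38.p14, LIF and OSM are direct neighbours, flanked by HORMAD2 and CASTOR1, IL6 lies between STEAP1B and TOMM7, and IL11 lies between GARIN5B and TMEM190. A peak in the shared interval therefore cannot be assigned to LIF or to OSM. Peak positions relative to gene starts were not analysed here, because no hg19 annotation was used. Sites below that are named after LIF and OSM or after IL6 are therefore sites of those intervals. They are not assigned to these genes rather than to a neighbouring gene.

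Of the 4 genes, only IL6, whose interval held c-Jun peaks, and IL11, whose interval held none, matched a RefSeq promoter by symbol. Promoter sequences are therefore shown for these 2 genes alone. They were taken from RefSeq (GRCh38.p14), reach from 250 bases before to 50 bases after the annotated start, and lie at chr7:22726950-22727249 on the plus strand and chr19:55370414-55370713 on the minus strand of that build. Capitals mark matches on either strand to the AP-1 site TGANTCA, to its cyclic AMP response element form TGACGTCA, or to a loose NF-kB letter pattern, GGG and CC separated by any 5 bases.
IL6: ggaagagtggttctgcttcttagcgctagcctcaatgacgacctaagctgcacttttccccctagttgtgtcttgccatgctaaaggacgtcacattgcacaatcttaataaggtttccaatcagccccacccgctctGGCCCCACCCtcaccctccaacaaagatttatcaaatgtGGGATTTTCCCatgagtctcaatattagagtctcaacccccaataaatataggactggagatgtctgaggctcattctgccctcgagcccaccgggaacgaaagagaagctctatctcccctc
IL11: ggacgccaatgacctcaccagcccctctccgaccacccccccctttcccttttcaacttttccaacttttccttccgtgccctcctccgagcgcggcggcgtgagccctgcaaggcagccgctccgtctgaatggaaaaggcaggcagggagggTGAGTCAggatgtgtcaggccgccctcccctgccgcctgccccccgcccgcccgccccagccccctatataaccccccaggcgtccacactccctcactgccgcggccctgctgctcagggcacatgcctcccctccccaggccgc

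The IL11 window held TGAGTCA, 96 to 90 bases before the start. Of 35116 RefSeq promoters of the same length, 7.71% held a TGANTCA word. The IL6 window held no TGANTCA word and no TGACGTCA word, the latter being present in 1.85% of promoters. It held GGGATTTTCC, 73 to 64 bases before the start, with an overlapping match on the other strand 1 base further, and a separate match 112 to 103 bases before the start. The NF-kB pattern is common, with a match in 58.7% of promoters. These are letter matches in a window of another build than the peaks. Sequence outside the windows was not searched. Whether an AP-1 word lies further upstream of the IL6 start was therefore not tested.

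The LIF and OSM interval held a strong c-Jun site in both conditions and further sites that were called with TNFalpha alone. Joined over the 4 lists, the interval held 5 separate sites, of which 1 was called in every list and 4 in no list without TNFalpha. Positions below are given by the distance of a peak centre from that of the site called in every list, towards higher coordinates.

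The constitutive LIF and OSM site lay at chr22:30591757-30593123 with TNFalpha and at chr22:30592073-30592997 without it. Its score without TNFalpha was 244.92 against IgG and 355.68 against input, which ranked 123 of 3323 and 217 of 7919 peaks in those lists. With TNFalpha its score was 531.67 against IgG and 873.43 against input, ranks 10 of 4439 and 19 of 8040. The score is made by the authors' peak caller on a scale that no source used here gives, and is read only as a rank within a list. The site was thus among the highest scoring 3.70% and 2.74% of peaks without TNFalpha and among the highest scoring 0.225% and 0.236% with it.

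The strongest site that was called with TNFalpha alone lay 9.32 kb from the constitutive site, at chr22:30601285-30602226. Its score of 383.58 against IgG ranked 52 of 4439, and its score of 478.56 against input ranked 175 of 8040. Among the 1493 peaks that were called against both controls with TNFalpha and overlapped no peak without it, it ranked 2 by IgG score. The nearest peak of either list without TNFalpha was 8.29 kb away.

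A further site lay 16.3 kb from the constitutive site, at chr22:30608442-30608954, with scores of 115.69 against IgG (rank 1357) and 320.49 against input (rank 535). The most distant site lay 54.4 kb away, at chr22:30646570-30647184, with scores of 142.69 against IgG (rank 922) and 115.26 against input (rank 3142). The order of these sites therefore depended on the control: the site at 54.4 kb ranked above the site at 16.3 kb against IgG and below it against input. Among the 4159 both-control peaks with TNFalpha, the site at 54.4 kb ranked at 22.2% by IgG score and at 63.7% by input score. The site at 16.3 kb ranked at 32.6% and 11.7%, counted from the highest score. A site 14.1 kb from the constitutive site, at chr22:30606294-30606731, was called with TNFalpha against input alone, with a score of 105.79 (rank 3487).

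**Figure D1:**
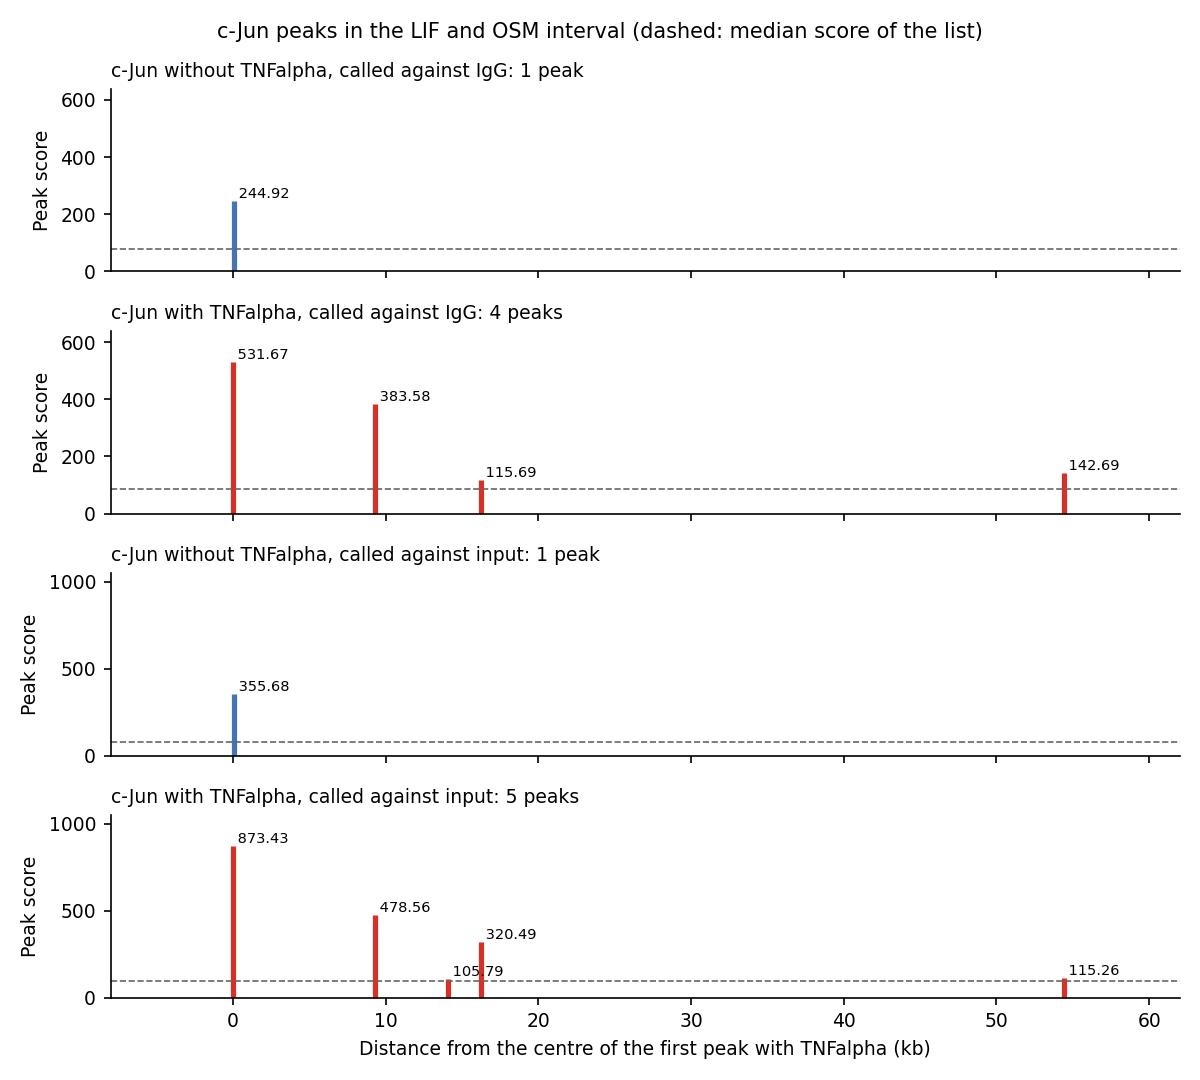
c-Jun peaks in the LIF and OSM interval. Each line stands at a peak centre (x axis, kb from the centre of the first peak with TNFalpha) and reaches to its score (y axis, scale of the peak caller, comparable only inside a panel), with the median score of the list dashed. The lists without TNFalpha hold only the peak near 0, and the lists with TNFalpha hold 4 and 5 peaks, all above the median of their list.

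The IL6 interval held 7 separate sites, and they did not move together. With TNFalpha, the site nearest the lower edge and a weaker peak directly beside it ranked higher, and a site near the middle of the interval was called that was absent from both lists without it. The other 2 sites called in both conditions ranked lower with TNFalpha than without it. Of the 7 sites, 2 were called in every list, 2 in no list without TNFalpha and 1 in no list with TNFalpha. Distances are again from the centre of the first peak with TNFalpha.

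The leading IL6 site lay at chr7:22616961-22618057 with TNFalpha and at chr7:22617109-22617515 without it. Without TNFalpha it scored 109.28 against IgG and 239.60 against input, ranks 913 of 3323 and 559 of 7919. With TNFalpha it scored 294.19 and 789.66, ranks 149 of 4439 and 35 of 8040. It was the highest scoring IL6 site in each of the 4 lists. Directly beside it, 4 bp beyond its upper end, a second peak at chr7:22618062-22618368 scored 102.51 against IgG and 225.52 against input with TNFalpha. Without TNFalpha this neighbour was called against input alone, at chr7:22618096-22618244, with a score of 61.21 (rank 5358 of 7919), so it counted as shared.

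The IL6 site that was called with TNFalpha alone against both controls lay at chr7:22766194-22767030, 149 kb from the leading site. It scored 159.75 against IgG (rank 701 of 4439) and 252.76 against input (rank 893 of 8040). Among the 1493 both-control peaks found only with TNFalpha it ranked 95 by IgG score. Its nearest neighbour, 3.86 kb further at chr7:22770892-22771222, was present in all 4 lists. That neighbour scored 69.06 against IgG (rank 2026 of 3323) and 165.48 against input (rank 1234 of 7919) without TNFalpha. With TNFalpha it scored 59.79 (rank 3596 of 4439) and 127.75 (rank 2741 of 8040). Within less than 5 kb, a site called only with TNFalpha thus stood beside a shared site. In both conditions that shared site scored below the median of the IgG-controlled list and above the median of the input-controlled list. The input-controlled medians were 75.79 without TNFalpha and 94.6 with it.

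The last IL6 site, 278 kb from the leading one at chr7:22895466-22895868, was called against both controls without TNFalpha, with scores of 83.70 against IgG (rank 1474) and 64.11 against input (rank 4950). With TNFalpha it was called against IgG alone, at chr7:22895460-22895861, with a score of 58.65 (rank 3709). Its centre lay 4.33 kb inside the upper edge of the interval, closer to an edge than any other member. The remaining sites were weak and were called in 1 list each: chr7:22713087-22713253 without TNFalpha (score 51.88 against input, rank 7265 of 7919) and chr7:22757708-22758085 with it (score 53.13 against input, rank 7397 of 8040). Both scores were close to 50, the lowest score of those lists.

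**Figure D2:**
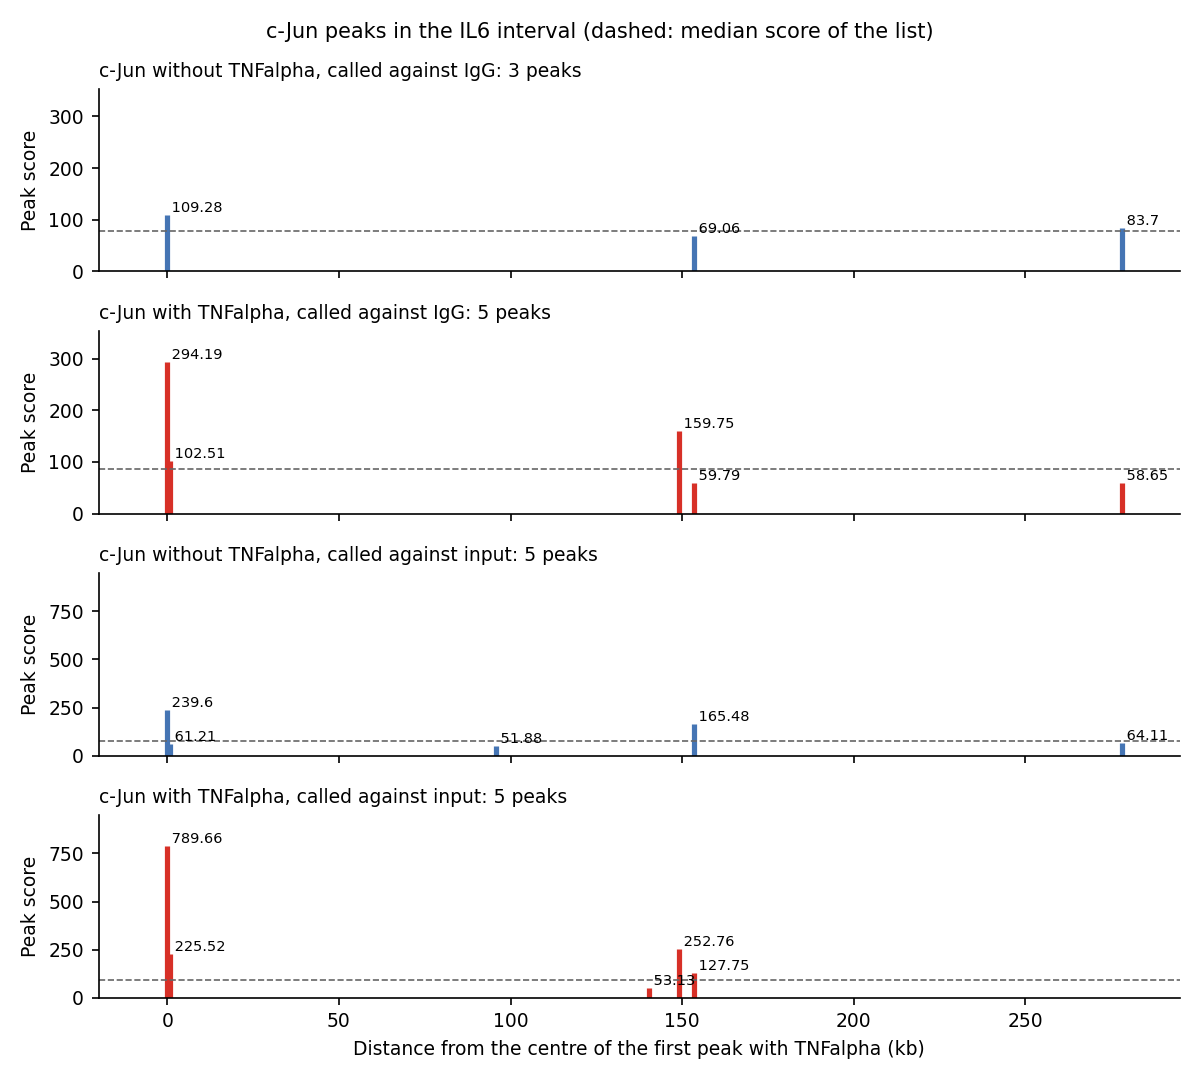
c-Jun peaks in the IL6 interval, drawn as for LIF and OSM: lines stand at peak centres (kb from the centre of the first peak with TNFalpha) and reach to the score, and the median score of each list is dashed. Scores are comparable only inside a panel. With TNFalpha the leading site scores 294.19 and 789.66, and a site at 149 kb appears beside the shared site at 154 kb. The shared site at 154 kb lies below the list median against IgG and above it against input, in both conditions.

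The IL11 interval held 0 peaks in each of the 4 lists. At 0 of 4159 both-control peaks with TNFalpha, a share of up to 0.0721% remains possible (3 counts of the total, counting error only). That bound concerns a share of the whole list and is no detection limit for 1 interval of 100 kb. An interval of this length without a peak is common: of 30867 successive windows of 100 kb over the genome, 90.2% held no both-control peak with TNFalpha and 91.9% held none without it. The nearest IgG-controlled peaks below the interval were 102 kb away without TNFalpha (chr19:55727831-55728113, score 55.36) and 172 kb away with it (chr19:55657462-55657792, score 69.46). Above the interval they were 1.51 Mb and 1.48 Mb away. No c-Jun peak near IL11 was therefore detectable in these lists, at an unknown depth.

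Over the 3 intervals, 4 of the 8 member peaks called against both controls with TNFalpha had no counterpart in either list without it (50%, exact 95% interval 15.7 to 84.3%). Of all 4159 such peaks, 35.9% had none. By locus, the number was 3 of 4 for LIF and OSM (19.4 to 99.4%) and 1 of 4 for IL6 (0.631 to 80.6%). In the opposite direction, 0 of the 4 both-control peaks without TNFalpha were missing from the library with it (exact upper limit 60.2%), beside 20.1% of all 3086. In the IgG-controlled lists alone, 5 of 9 members with TNFalpha and 0 of 4 without it lacked a counterpart, beside 49.7% and 32.6% of all peaks. In the input-controlled lists alone, 6 of 10 and 2 of 6 did, beside 49.1% and 47.8%. The peaks are few, the exact intervals treat them as independent, and presence was in view when the loci were proposed. These shares are therefore a description, and whether the loci differ from the rest of the lists was not tested. The members with TNFalpha had a median IgG score of 151 and a median width of 726 bp, beside 89.8 and 434 bp over all both-control peaks of that library. Without TNFalpha, the members' medians were 96.5 and 405 bp, beside 81.0 and 396.5 bp.

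**Figure D3:**
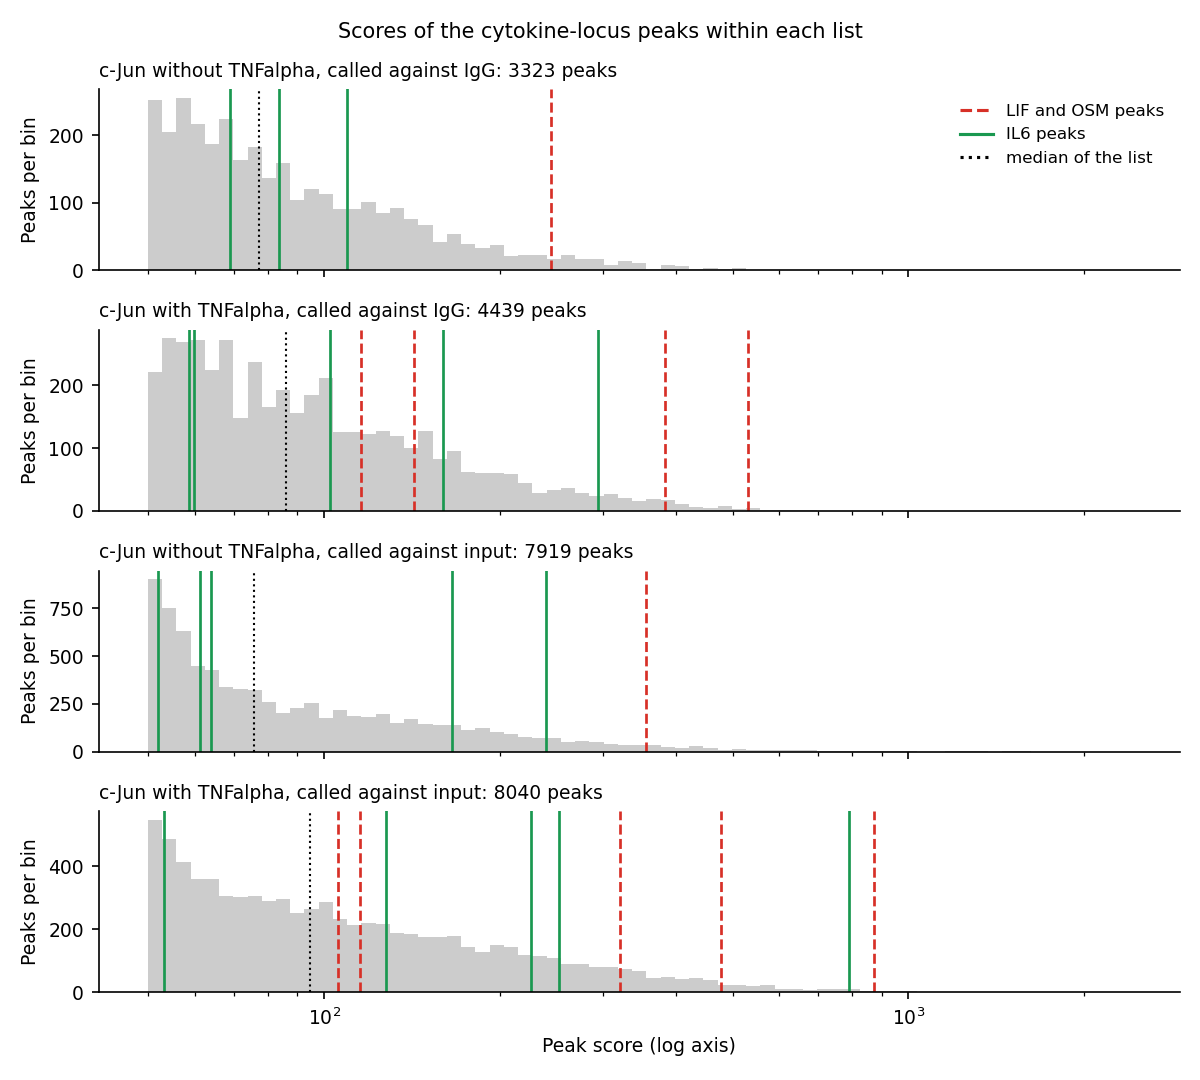
Where the cytokine-locus peaks fall in the score distribution of each list. Grey bars count peaks per score bin (log x axis), dashed red lines are LIF and OSM peaks, green lines are IL6 peaks, and the dotted line is the list median. LIF and OSM peaks lie above the median in every list, whereas IL6 peaks lie on both sides of it in every list.

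Because the lists differ in length, sites present in both conditions were also ranked among one-to-one matched pairs, which give each library the same number of peaks. The IgG-controlled lists gave 2220 pairs, and 47.7% of them ranked higher with TNFalpha. The LIF and OSM site went from rank 123 to rank 10, and the leading IL6 site from rank 845 to rank 139. The other IL6 pairs took the opposite course, from rank 1619 to 1988 for the site at 154 kb and from rank 1275 to 2025 for the site at 278 kb. The median absolute change over all IgG-controlled pairs was 411 places, beside 706 places for the leading IL6 site, 369 for the site at 154 kb and 750 for the site at 278 kb. The LIF and OSM site, already near the top without TNFalpha, had little room to rise. Among the 4037 pairs of input-controlled lists, the LIF and OSM site went from rank 210 to 19, the leading IL6 site from 544 to 35, its neighbour from 3536 to 978, and the site at 154 kb from 1166 to 2088. The median absolute change there was 732 places, beside 922 for the site at 154 kb and 509 for the leading IL6 site. From rank 544 the leading IL6 site could not have risen by 732 places, so its change cannot be compared with that median. Each pair matched in both kinds of list thus moved in the same direction against IgG and against input, although these 2 calls used the same c-Jun reads and do not replicate each other.

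**Figure D4:**
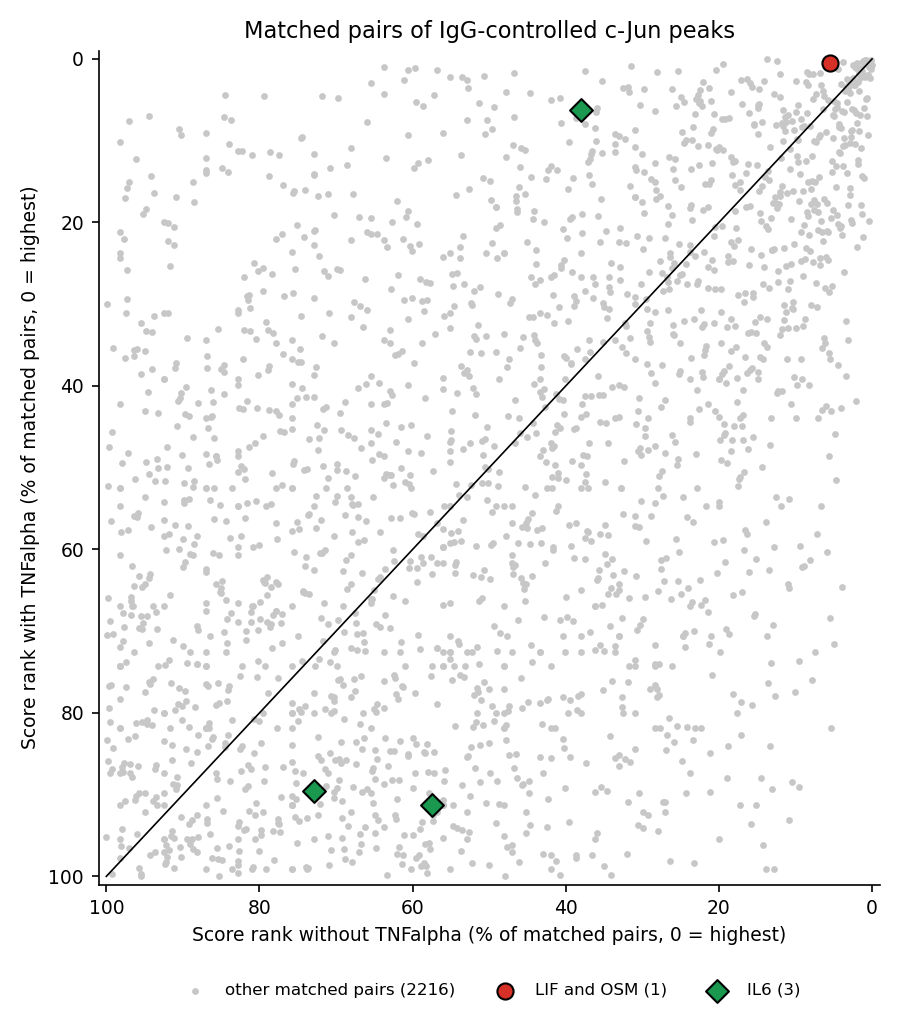
Score rank of matched IgG-controlled peaks without TNFalpha (x axis) and with TNFalpha (y axis), as percent of the 2220 pairs, with the line of equal rank in black. Both axes are reversed, so the highest scores lie at the upper right and pairs drawn above the line ranked higher with TNFalpha: these include the LIF and OSM pair (circle) and the leading IL6 pair, whereas the other IL6 pairs (diamonds) are drawn below it.

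The matched peaks that ranked higher with TNFalpha were also wider with it, and those that ranked lower were narrower or of nearly the same width. The LIF and OSM peak was 925 bp wide without TNFalpha and 1367 bp wide with it, a ratio of 1.48. The leading IL6 peak was 407 bp and 1097 bp wide, a ratio of 2.70, which ranked 24 of 2220 pairs. The IL6 site at 154 kb measured 367 bp and 331 bp (ratio 0.902), and the site at 278 kb measured 403 bp and 402 bp (ratio 0.998). Over all pairs the median ratio was 1.10, with an interquartile range of 0.921 to 1.34. The centre of the leading IL6 peak lay 197 bp higher with TNFalpha, beside a median absolute shift of 42 bp over all pairs. In all 12 both-control member peaks the edges were identical in the IgG-controlled and input-controlled lists, as they were in every both-control peak of both libraries, so width is not a separate measurement for the 2 controls.

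Long stretches without both-control peaks flanked these sites, above LIF and OSM and on both sides of IL6. With TNFalpha, the 4 both-control peaks of LIF and OSM spanned 55.4 kb and covered 3437 bp, against 925 bp in the library without it. The next both-control peak below them was 281 kb away and the next above was 4.42 Mb away, or 839.8 kb away in the library without TNFalpha. In the input-controlled list with TNFalpha a weak peak (score 52.66) lay 579.8 kb above them. The IL6 peaks covered 2572 bp with TNFalpha and 1177 bp without it. The next both-control peak below the IL6 sites was 2.25 Mb away with TNFalpha and 2.22 Mb away without it, and the next above was 603 kb and 1.97 Mb away. Weak peaks of the input-controlled lists lay closer above the IL6 sites, 204 kb away with TNFalpha (score 52.86) and 86.0 kb away without it (score 69.72). The median gap between successive both-control peaks was 206 kb with TNFalpha and 343 kb without it, and 9.15% and 13.2% of gaps exceeded 2000 kb.

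Among successive windows of 170 kb, the length of the LIF and OSM interval, 106 of 18170 (0.583%) held at least 4 both-control peaks with TNFalpha, as this interval did. At least 3 peaks found only with TNFalpha were held by 52 windows (0.286%). Among windows of 300 kb, the length of the IL6 interval, 174 of 10309 (1.69%) held at least 4 both-control peaks with TNFalpha, and 220 (2.13%) held at least 3 without it. The intervals were drawn with these peaks in view and the windows were not, so these shares describe how common such groups are and test nothing.

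Of 16 listed receptor and signalling genes of the pathway, 13 had a promoter in the RefSeq table by symbol. A TGANTCA word was present in 3 of them: IL6R, the ligand-binding receptor of IL6, OSMR, the oncostatin M receptor subunit, and CNTF, a related ligand. The TGACGTCA word was present in 0 and the NF-kB pattern in 10 of the 13. Counted by promoter, since some genes have several, 3 of 22 held TGANTCA (13.6%), beside 7.71% of all promoters, and 15 of 22 held the NF-kB pattern (68.2%), beside 58.7%. The c-Jun peaks near these genes were not analysed here.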

How the data were processed

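Peaks of c-Jun ChIP-seq in BT549 cells were analysed from 4 deposited lists without headers. The submitters' processing notes name CASAVA 1.8, Bowtie 0.12.9 and the build hg19. Each c-Jun library was called against IgG and against input, per the labels. Peak names begin with MACS, but the version, threshold and duplicate handling of the caller are not given in the sources used. The deposited score of each peak was made by the authors' peak caller and was used only within its list. No pooling is described.

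Starts were raised by 1 to give 1-based hg19 positions. Within a library, a peak of the IgG-controlled list counted as a both-control peak where it shared at least 1 bp with the input-controlled list, and it took the input score from there. Such a peak was shared if it overlapped any peak of the other library. Matched pairs were each other's longest overlap. Windows were tiled from position 1 to the highest peak end of each chromosome. Shares carry exact Clopper-Pearson 95% intervals, which cover counting error only. Each condition had 1 library, so no test was made. All peaks of the intervals are accounted for. The members, lists, windows and matched pairs were chosen with earlier results of these data known.

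Python 3.11.15, numpy 2.4.6, pandas 2.3.3, scipy 1.17.1 and matplotlib 3.10.9 were used. The overlap code was tested on simulated data and against bedtools 2.31.1, with 0 of 24 counts differing.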

Additional observations from a re-analysis of the deposited data

How the results depend on the processing

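No paired analysis was possible because there was 1 library per condition, and no library could be left out. The IL6 interval held 5 peaks without TNFalpha in the input-controlled list, against 3 called against both controls. Members found only without TNFalpha numbered 0 in the main comparison, beside 20.1% of all peaks. With reciprocal overlap of at least 50% they numbered 1, beside 25.7%. When a counterpart had to be called against both controls they numbered 1, beside 33.1%. They numbered 2 in the input-controlled lists, beside 47.8%, and 2 with equal numbers of highest scoring IgG-controlled peaks, beside 42.2%. Shared members numbered 4 in each library. With reciprocal overlap they numbered 2 with TNFalpha, and with equal numbers they numbered 2 in each library. Members found only with TNFalpha were 3 at LIF and OSM and 1 at IL6, beside 35.9% of all peaks. The IL6 number was 2 or 3 in 5 of the alternatives, where the share over all peaks was 42.7% to 50.5%. Widening the intervals by 100 kb, added after seeing the data, changed no number of both-control peaks. Ranks depended on the list and the measure. The list percent left its counting interval in 11 of 12 member peaks when ranked against input and in 8 of 12 when ranked by width. The input-controlled lists are also longer, so control and list length changed together in the ranking against input.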
